A study of Mus musculus with 10 samples.

Results

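The intercalated disc is the end-to-end contact between cardiomyocytes, and 10 of its genes were followed in RNA of cardiomyocytes isolated 4 days after myocardial infarction (MI). They were chosen by function, with earlier results of these data known, out of 51789 genes counted. They were 5 desmosomal genes (Dsp, Dsg2, Dsc2, Jup and Pkp2), 2 gap junction genes (Gja1 and Gjc1), 2 adherens junction genes (Cdh2 and Ctnna3) and the scaffold gene Tjp1. All 10 symbols matched 1 Ensembl identifier each, and all 10 genes passed the filter on low counts, which kept 15232 genes. The groups were 5 non-transgenic littermate controls (NLC-MI) and 5 mice with a cardiomyocyte-specific GRK5 transgene (TgGRK5-MI), with 1 library per mouse, and MI had been induced in both by permanent ligation of the left coronary artery. The study operated on young adult mice of both sexes, while the sex of each of these 10 mice and the promoter of the transgene are not given in the sources used here. No sham-operated library was analysed here, so the genes are compared between infarcted hearts only.

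In the disc, desmosomes tie the intermediate filaments of neighbouring cells together and adherens junctions tie their actin filaments, so that force passes from cell to cell. Gap junctions are clusters of connexin channels that let the action potential pass. In the heart these junctions are mixed along the disc, and mutations in the desmosomal genes are a known cause of arrhythmogenic cardiomyopathy.

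Depth lay between 7968779 counts (NLC-MI replicate 3) and 23381527 counts (NLC-MI replicate 2). Values are given as CPM, counts divided by the library size in units of 1000000 after edgeR's TMM scaling, and 3 counts, taken as the floor, corresponded to between 0.121 and 0.393 CPM. NLC-MI replicate 3 and TgGRK5-MI replicates 3 and 4 had the fewest counts and lay apart from the other 7 libraries on the first principal component. The lowest count of a member in any library was 227, for Ctnna3 in TgGRK5-MI replicate 4. Grk5, the gene of the transgene's protein, lay between 46.5 and 73.1 CPM in the controls and between 552 and 1700.4 CPM in TgGRK5-MI. The cardiomyocyte markers were high in every library, with Myh6, the main adult myosin heavy chain of the mouse, at 15542 CPM or more in each. Markers of other cells were present as well, and the 7 fibroblast markers summed to between 4027 and 24745 CPM, over ranges that overlapped between the groups. In such bulk RNA, fewer cells of a type and less RNA per cell cannot be told apart.

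None of the 10 genes passed the test of TgGRK5-MI against NLC-MI. With edgeR's quasi-likelihood test 0 members had an adjusted p under 0.10, and each had an adjusted p of 1.00, where 0.0788% of all genes tested were called (0.0525% higher and 0.0263% lower). At an unadjusted p under 0.05 there were 0 members as well, where the share over all genes was 3.85%. DESeq2's Wald test also called 0 members at an adjusted p under 0.10 and called 1, Dsp, at an unadjusted p under 0.05. The values of the groups overlapped for every member, while they did not overlap for 1% of all genes tested. The fitted log2 fold change, TgGRK5-MI over NLC-MI, was below 0 for 9 of the 10 members and for 49.8% of all genes. Among all genes with exon lengths like those of the members the share was higher. It was 53.4% over 4000 to 6000 bases, 56.9% over 6000 to 8000 bases and 61.8% over 8000 to 12000 bases. The median was -0.15 over the members and 0.00 over all genes. The members share their libraries and most varied together, so their directions are not independent of each other. The number of members below 0 depended on single libraries, while Dsp, Dsg2, Dsc2, Jup and Cdh2 stayed below 0 with each library left out in turn. Without NLC-MI replicate 3 the log2 fold change was below 0 for 5 members (median -0.05), and without TgGRK5-MI replicate 2 for 6 members (median -0.09). In the 7 deepest libraries, which leave out the 3 that lay apart, it was below 0 for all 10 members (median -0.22), with 0 at an unadjusted p under 0.05.

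**Figure D1:**
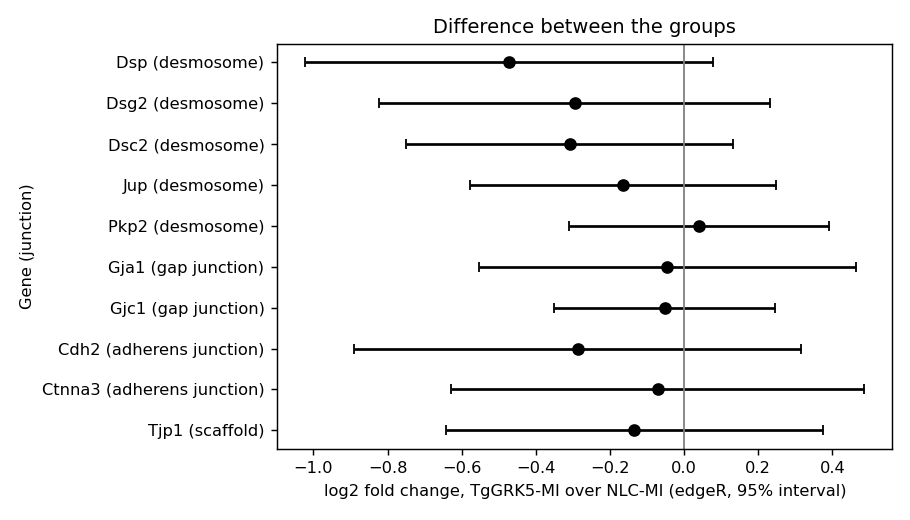
Log2 fold change of each gene (horizontal axis, TgGRK5-MI over NLC-MI, edgeR) with its 95% interval, for the 10 genes listed with their junction on the vertical axis. All 10 intervals include 0, and Dsp lies farthest from it at -0.47.

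Promoter sequences are shown for 4 members, from the desmosome (Dsp and Jup), the gap junction (Gja1) and the scaffold (Tjp1). The RefSeq table for GRCm38.p6 held promoters of 5 of the 10 members. Each line gives the 250 bases before a start annotated in that table, read 5′ to 3′ on the gene's strand. The windows were at chr13:38151044-38151293 on the forward strand for Dsp and at chr11:100397791-100398040 on the reverse strand for Jup. They were at chr10:56377050-56377299 on the forward strand for Gja1 and at chr7:65371245-65371494 on the reverse strand for Tjp1. The Tjp1 window lies inside the span of the gene given below (chromosome 7 from 65296165 to 65527781), at an internal start. Capitals mark the GC box GGGCGG and the AP-1 site TGANTCA, searched on both strands. TATAAA was searched too and is in none of the 4 shown. Ctnna3, the other member with promoters in the table, is not shown. Its window at chr10:63820805-63821054 held 1 TATAAA match, that at chr10:63429848-63430097 held 1 GC box, and that at chr10:63457261-63457510 held no match.
Dsp: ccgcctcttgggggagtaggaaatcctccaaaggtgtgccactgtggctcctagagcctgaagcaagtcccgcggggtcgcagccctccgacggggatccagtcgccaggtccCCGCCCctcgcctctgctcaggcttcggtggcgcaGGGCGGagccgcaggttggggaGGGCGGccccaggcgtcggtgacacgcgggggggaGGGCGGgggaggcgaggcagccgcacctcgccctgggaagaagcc
Jup: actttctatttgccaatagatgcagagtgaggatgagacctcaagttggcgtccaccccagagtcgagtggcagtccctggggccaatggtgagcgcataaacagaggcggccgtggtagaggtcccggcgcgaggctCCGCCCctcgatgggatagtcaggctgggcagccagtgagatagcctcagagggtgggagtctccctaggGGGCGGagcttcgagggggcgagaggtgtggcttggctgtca
Gja1: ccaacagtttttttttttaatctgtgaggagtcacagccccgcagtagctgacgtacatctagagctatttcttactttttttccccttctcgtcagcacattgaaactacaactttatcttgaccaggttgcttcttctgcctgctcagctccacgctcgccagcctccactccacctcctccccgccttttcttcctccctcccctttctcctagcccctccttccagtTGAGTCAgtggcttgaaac
Tjp1: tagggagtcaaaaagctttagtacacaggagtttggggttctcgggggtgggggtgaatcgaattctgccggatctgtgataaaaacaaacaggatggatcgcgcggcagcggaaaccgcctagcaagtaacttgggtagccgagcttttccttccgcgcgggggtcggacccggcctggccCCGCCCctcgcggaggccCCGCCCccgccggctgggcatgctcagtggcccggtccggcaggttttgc
Dsp held 4 GC boxes, Jup held 2 and Tjp1 held 2, while Gja1 held none and had 1 AP-1 site, near the end of the window. Over all 32851 promoters of the table the GC box was found in 32.7%, the AP-1 site in 6.75% and TATAAA in 12.4% of windows of the same length. The match of letters is a description of the sequence and was not tested for binding.

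Among the desmosomal genes, Dsp (ENSMUSG00000054889, chromosome 13 from 38151294 to 38198577 of GRCm38), which encodes desmoplakin, the protein that links the desmosomal plaque to intermediate filaments, had the highest level and the largest difference. Dsp was at 763, 1269, 1244, 1462 and 1789 CPM in NLC-MI replicates 1 to 5 and at 1222, 693, 1044, 863 and 883 CPM in TgGRK5-MI replicates 1 to 5. The lowest control, NLC-MI replicate 1, lay below 4 of the 5 TgGRK5-MI libraries, and the other 4 controls lay above all 5 of them. The means were 1306 ± 373 CPM over the controls and 941 ± 200.4 CPM over the transgenic libraries (SD, n = 5 each), a fold of 0.72 with a 95% interval from 0.49 to 1.06 (edgeR's quasi-likelihood test, unadjusted p = 0.0860 and adjusted p = 1.00, exact two-sided permutation test of mean log2 CPM, p = 0.0952). DESeq2's Wald test gave an unadjusted p of 0.0441 and an adjusted p of 1.00. Without NLC-MI replicate 1 the log2 fold change of Dsp was -0.63 (edgeR unadjusted p = 0.0207, adjusted p = 0.838), and over all 16 alternatives the adjusted p ran from 0.763 to 1.00.

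The desmosomal cadherins Dsg2 and Dsc2 encode desmoglein 2 and desmocollin 2, which bridge the gap between the membranes, and both lie on chromosome 18 (Dsg2, ENSMUSG00000044393, from 20558074 to 20604521, and Dsc2, ENSMUSG00000024331, from 20030633 to 20059554). Dsg2 was at 51.1, 65.1, 102, 82.4 and 118 CPM in NLC-MI replicates 1 to 5 and at 74.2, 43.8, 82.7, 78.8 and 61.0 CPM in TgGRK5-MI replicates 1 to 5. Dsc2 was at 27.5, 30.2, 44.1, 46.7 and 50.2 CPM in NLC-MI and at 39.8, 24.7, 34.9, 33.6 and 27.3 CPM in TgGRK5-MI, in the same order of replicates. For both genes TgGRK5-MI replicate 2 was the lowest and NLC-MI replicate 5 the highest of the 10 libraries, and NLC-MI replicates 1 and 2 lay within the range of TgGRK5-MI. For Dsg2, NLC-MI replicate 4 (82.4 CPM) also lay within that range, just under TgGRK5-MI replicate 3 (82.7 CPM). The fold was 0.81 for each gene, with a 95% interval from 0.57 to 1.17 for Dsg2 (edgeR unadjusted p = 0.244) and from 0.59 to 1.10 for Dsc2 (edgeR unadjusted p = 0.152).

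Jup (ENSMUSG00000001552, chromosome 11 from 100368958 to 100397763) encodes plakoglobin, an armadillo protein that serves both desmosomes and adherens junctions, and Pkp2 (ENSMUSG00000041957, chromosome 16 from 16213318 to 16272712) encodes plakophilin 2, which binds desmoplakin to the cadherins. Jup was at 260.5, 279, 360.0, 351 and 311 CPM in NLC-MI replicates 1 to 5 and at 281, 202, 390.1, 285 and 237 CPM in TgGRK5-MI replicates 1 to 5. Pkp2 was at 190.2, 201, 253, 266 and 244 CPM in NLC-MI and at 247, 176, 279, 239 and 247 CPM in TgGRK5-MI. The lowest and the highest library of each gene were both TgGRK5-MI libraries, replicates 2 and 3. The fold was 0.89 for Jup (95% interval from 0.67 to 1.19, edgeR unadjusted p = 0.402) and 1.03 for Pkp2 (95% interval from 0.81 to 1.31, edgeR unadjusted p = 0.802). Pkp2 was the only member with a fitted fold above 1, a direction that turned in the 7 deepest libraries (log2 fold change -0.02).

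Gja1 (ENSMUSG00000050953, chromosome 10 from 56377330 to 56402513) encodes connexin 43, the main connexin of the working ventricle, and Gjc1 (ENSMUSG00000034520, chromosome 11 from 102799579 to 102819700) encodes connexin 45, which is more typical of the conduction system and the early heart. Gja1 was at 451, 461, 828, 571 and 699.9 CPM in NLC-MI replicates 1 to 5 and at 642, 384, 691, 697 and 503 CPM in TgGRK5-MI replicates 1 to 5. Gjc1 was at 32.7, 27.8, 34.8, 26.4 and 25.7 CPM in NLC-MI and at 29.2, 24.2, 30.3, 30.3 and 28.1 CPM in TgGRK5-MI. NLC-MI replicate 3 was the highest and TgGRK5-MI replicate 2 the lowest library for both connexins. The fold was 0.97 for Gja1 (95% interval from 0.68 to 1.38, edgeR unadjusted p = 0.848) and 0.96 for Gjc1 (95% interval from 0.78 to 1.18, edgeR unadjusted p = 0.706). The Gjc1 interval was the narrowest of the 10 members on the log2 scale, so a change by more than 1.18-fold upward lay outside it, while a smaller one did not.

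Cdh2 (ENSMUSG00000024304, chromosome 18 from 16588877 to 16809246) encodes N-cadherin, the adhesion receptor of the adherens junction, and Ctnna3 (ENSMUSG00000060843, chromosome 10 from 63430098 to 65003667) encodes αT-catenin, which connects it to actin and binds plakophilin 2. Cdh2 was at 305, 321, 655, 462 and 499 CPM in NLC-MI replicates 1 to 5 and at 388, 221, 494, 468 and 267 CPM in TgGRK5-MI replicates 1 to 5. Ctnna3 was at 12.3, 23.8, 36.1, 27.2 and 27.8 CPM in NLC-MI and at 27.6, 16.97, 30.1, 24.5 and 21.8 CPM in TgGRK5-MI. NLC-MI replicate 3 was again the highest library for both, and the lowest was TgGRK5-MI replicate 2 for Cdh2 and NLC-MI replicate 1 for Ctnna3. The fold was 0.82 for Cdh2 (95% interval from 0.54 to 1.24, edgeR unadjusted p = 0.319) and 0.95 for Ctnna3 (95% interval from 0.65 to 1.40, edgeR unadjusted p = 0.786).

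Tjp1 (ENSMUSG00000030516, chromosome 7 from 65296165 to 65527781) encodes ZO-1, a scaffold that binds connexin 43 at the edge of the gap junction plaque and is also a tight junction protein of endothelial cells. Tjp1 was at 82.6, 104, 170.1, 108 and 85.8 CPM in NLC-MI replicates 1 to 5 and at 93.2, 91.5, 77.6, 150.4 and 89.3 CPM in TgGRK5-MI replicates 1 to 5. NLC-MI replicate 3 and TgGRK5-MI replicate 4 stood above the other 8 libraries, and the fold was 0.91 (95% interval from 0.64 to 1.30, edgeR unadjusted p = 0.575). The same libraries had the highest sums of the 5 endothelial markers (Pecam1, Cdh5, Kdr, Tek and Tie1), at 1282 and 1334 CPM, where the other 8 libraries lay between 629 and 1017 CPM. Pecam1, Cdh5, Kdr and Tek were each higher in both of these libraries than in any other. Tie1 was not, at 113 CPM in NLC-MI replicate 3, 117 CPM in TgGRK5-MI replicate 4 and 133 CPM in TgGRK5-MI replicate 5. None of the 5 endothelial markers was at 0 or had an unadjusted p under 0.05 between the groups, and the part of endothelial RNA in the Tjp1 values was not tested.

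**Figure D2:**
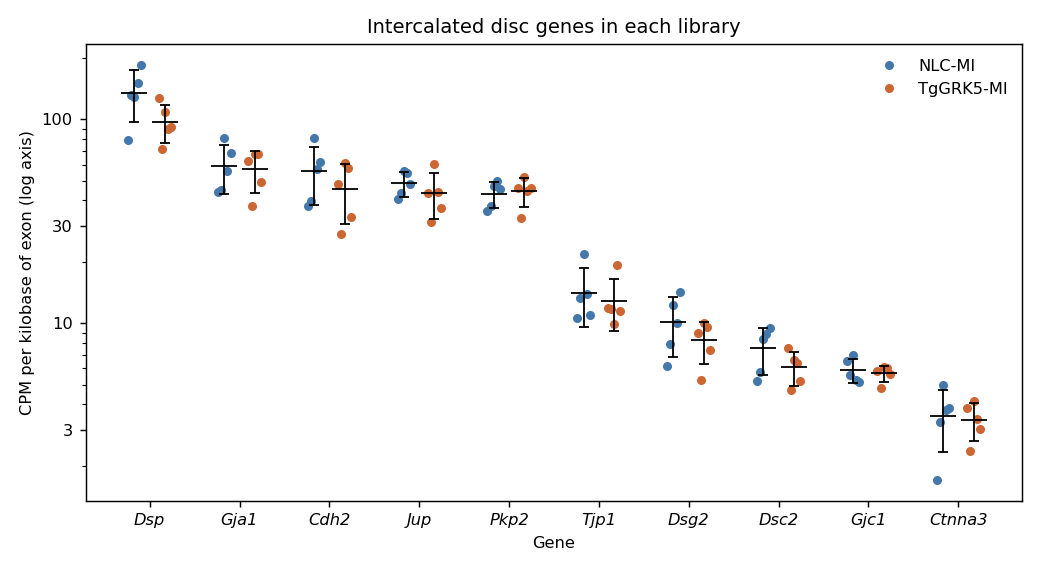
CPM per kilobase of exon (vertical axis, log scale) of the 10 genes, ordered by their mean level, in the 5 NLC-MI and 5 TgGRK5-MI libraries. Points are libraries, and the black marks are means with SD. The exon length joins all exons annotated for a gene. By this measure Dsp is highest and Ctnna3 lowest, and in every gene the groups overlap.

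To compare levels between the genes, CPM was divided by the exon length in kilobases. This length joins all exons annotated for a gene over its transcripts, so it can exceed the length of the transcript expressed. The order of the genes below depends on that choice, and levels by the length of single transcripts were not computed. In NLC-MI, Dsp was at 135 ± 38.7 CPM per kilobase (SD, n = 5), followed by Gja1 at 58.7 ± 15.8, Cdh2 at 55.6 ± 17.8, Jup at 48.5 ± 6.77 and Pkp2 at 43.1 ± 6.21 CPM per kilobase. A gap followed, with Tjp1 at 14.1 ± 4.52, Dsg2 at 10.1 ± 3.26, Dsc2 at 7.53 ± 1.93, Gjc1 at 5.89 ± 0.805 and Ctnna3 at 3.52 ± 1.195 CPM per kilobase. The ranges of neighbours overlapped over the 10 libraries at every step of this order other than that from Pkp2 to Tjp1. Within a library the order held in all 10 libraries for Dsp over Gja1, Pkp2 over Tjp1, Dsg2 over Dsc2 and Gjc1 over Ctnna3, and in 6 of 10 for Cdh2 over Jup and for Jup over Pkp2, which did not differ beyond their spread. In TgGRK5-MI the levels ran from 97.4 ± 20.7 CPM per kilobase for Dsp to 3.35 ± 0.706 for Ctnna3 (SD, n = 5). The desmosomal genes thus spanned the range, with both cadherins far below the plaque genes Dsp, Jup and Pkp2 in these libraries.

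The balance between related genes in 1 junction was compared as a ratio within each library, which does not depend on library scaling. The levels per kilobase used the joined exon lengths and depend on them, while the difference of log2 ratios between the groups does not. Gjc1 was at 0.103 of the level of Gja1 per kilobase in NLC-MI and at 0.102 in TgGRK5-MI. The log2 ratio of CPM was -4.32 ± 0.398 and -4.32 ± 0.241 (SD, n = 5 each). The difference was -0.01 (exact two-sided permutation test, p = 0.968). Dsc2 was at 0.758 of the level of Dsg2 in NLC-MI and at 0.747 in TgGRK5-MI (difference of log2 ratios -0.02, exact permutation test, p = 0.754). Jup was at 0.585 of the level of its close relative Ctnnb1, β-catenin, in NLC-MI and at 0.464 in TgGRK5-MI (difference of log2 ratios -0.34, exact permutation test, p = 0.397). Its log2 ratio ran from -0.89 to 0.23 in NLC-MI and from -1.57 to 0.15 in TgGRK5-MI, the widest spread of the 3 ratios. Adjusted over the 3 ratios, p was 0.968 for each.

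With TMM scaling, most members varied together from library to library within the groups. As deviations of log2 CPM from the group means, the 8 genes other than Gjc1 and Tjp1, singled out after their values were seen, had correlations between 0.57 and 0.97 over the 28 pairs (Pearson's r, n = 10 libraries, a description of genes that share their libraries). Gjc1 had r between -0.24 and 0.48 with the other 9 members, and Tjp1 had r between 0.00 and 0.49. Of 5 pairs of genes whose proteins meet in a junction, Dsg2 and Dsc2 had Pearson's r = 0.91 (exact permutation test within groups, p = 0.00139, adjusted p = 0.00347 over the 5 pairs) and Spearman's rho = 0.81 (permutation p = 0.0274, adjusted p = 0.0686), with r = 0.87 without the 2 libraries farthest from the median. Cdh2 and Ctnna3 had r = 0.82 (exact permutation p = 0.00125, adjusted p = 0.00347) and rho = 0.89 (permutation p = 0.00313, adjusted p = 0.0156), with r = 0.80 without 2 libraries. Dsp and Pkp2 had r = 0.72 (exact permutation p = 0.0197, adjusted p = 0.0328) and rho = 0.64 (permutation p = 0.0653, adjusted p = 0.109), with r = 0.72 without 2 libraries; with library size in place of TMM, r was 0.49 (permutation p = 0.140). Dsp and Jup had r = 0.57 (exact permutation p = 0.0675, adjusted p = 0.0844) and rho = 0.50 (permutation p = 0.160, adjusted p = 0.2003), with r = 0.56 without 2 libraries and r = 0.29 with library size (permutation p = 0.414). Gja1 and Tjp1 had r = 0.48 (exact permutation p = 0.207, adjusted p = 0.207) and rho = 0.43 (permutation p = 0.249, adjusted p = 0.249), with r = 0.28 without 2 libraries. These tests asked whether a pair was correlated at all, and not whether partners were closer than other members. The median r over the 28 pairs was 0.82. Pairs outside the 5 reached r = 0.97 (Gja1 with Cdh2) and r = 0.93 (Dsg2 with Gja1).

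**Figure D3:**
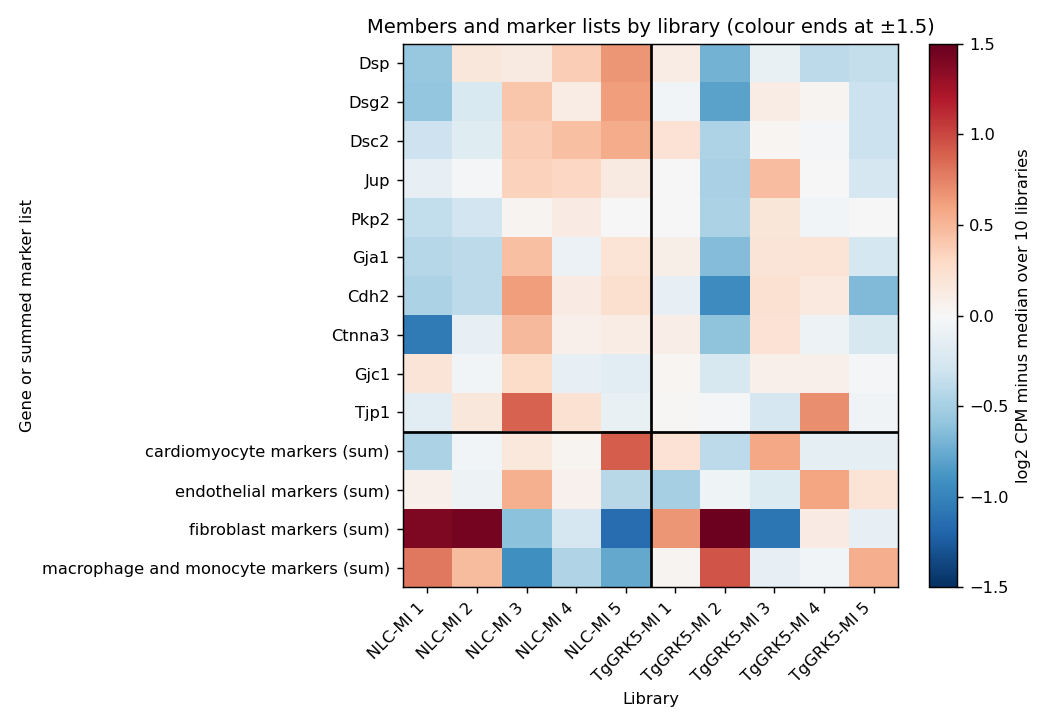
Log2 CPM of the 10 genes, and of the sums of 4 marker lists, in each library (columns) minus the median over the 10 libraries (colour, red above and blue below, ending at 1.5). The upper 8 genes are lowest in TgGRK5-MI replicate 2 or NLC-MI replicate 1, where the fibroblast sum is high. It is also high in NLC-MI replicate 2, which is the lowest library for none of them.

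Marker genes of other cells moved in part with these values. The fibroblast sum (Col1a1, Col1a2, Col3a1, Dcn, Pdgfra, Lum and Postn) was 23558, 24086, 5813, 7467 and 4027 CPM in NLC-MI replicates 1 to 5 and 14144, 24745, 4194, 9746 and 8152 CPM in TgGRK5-MI replicates 1 to 5. TgGRK5-MI replicate 2, with the highest fibroblast sum, was the lowest library for 8 of the 10 members (other than Ctnna3 and Tjp1). NLC-MI replicate 2, with the next highest sum, was the lowest library for none of them. The sum of the 10 cardiomyocyte markers was 59890 CPM in NLC-MI replicate 1 and 63223 CPM in TgGRK5-MI replicate 2, the lowest of the 10 libraries, and was highest at 156290 CPM in NLC-MI replicate 5. Between the groups, 0 of the 7 fibroblast markers had an unadjusted p under 0.05 with edgeR, and likewise 0 of 7 macrophage and monocyte markers, 0 of 6 smooth muscle and pericyte markers, 0 of 4 epicardial markers and 0 of the 3 neutrophil markers tested. Of the 10 cardiomyocyte markers 1 was lower in TgGRK5-MI at that threshold, Ryr2, the calcium release channel of the sarcoplasmic reticulum (edgeR unadjusted p = 0.00903), and of the 4 atrial markers 1 was lower, Myl7 (edgeR unadjusted p = 0.0406). The sums overlapped between the groups for every list, as the macrophage sum did with 539.5 to 1775 CPM in the controls and 938 to 1970.3 CPM in the transgenic libraries. The part of these cells in the values of the members was not tested.

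The 5 genes whose deviations were most like those of Gja1 among all genes tested were Mtpap (Pearson's r = 0.99), which encodes the mitochondrial poly(A) polymerase, Map3k20 (r = 0.99), a stress kinase, Sbno1 (r = 0.99), Camk2d (r = 0.99), the main calmodulin-dependent kinase of the heart, and Cacna2d1 (r = 0.98), a subunit of voltage-gated calcium channels, each over 10 libraries and as a description. Among the members Cdh2 came closest to Gja1, with r = 0.97. None of the 5 genes passed the test between the groups, with log2 fold changes between -0.26 and 0.05 (edgeR unadjusted p from 0.374 to 0.920).

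Beyond the 10 members, 76 further genes of the disc were listed from general knowledge, with earlier results of these data known. Of these, 64 passed the filter on low counts. With edgeR's quasi-likelihood test 3 of them stood higher in TgGRK5-MI at an unadjusted p under 0.05 and 4 stood lower, beside shares over all genes of 1.77% and 2.08%, and 0 had an adjusted p under 0.10. The lower count ran from 2 without NLC-MI replicate 4 to 11 without NLC-MI replicate 1, and was 8 without NLC-MI replicate 5. The median log2 fold change over the 64 genes was -0.12, and it was below 0 for 42 genes. DESeq2 gave an adjusted p under 0.10 to 0 of them as well. None of these differences therefore passed the correction over all genes, and their values are given with the unadjusted p.

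Of the desmosome-related genes, Perp, a membrane protein of desmosomes and a p53 target, was at 164, 151, 209, 268 and 210.5 CPM in NLC-MI and at 300.2, 263, 319, 327 and 307 CPM in TgGRK5-MI, so that 1 library of TgGRK5-MI lay within the range of the controls (log2 fold change 0.60 with a 95% interval from 0.23 to 0.97, edgeR unadjusted p = 0.00440, adjusted p = 0.770). Plec, the cytolinker plectin, averaged 388 ± 121 CPM over the controls and 238 ± 47.1 CPM over TgGRK5-MI (SD, n = 5 each; log2 fold change -0.70, edgeR unadjusted p = 0.0102, adjusted p = 0.984). Des, the muscle intermediate filament desmin that desmoplakin anchors, averaged 5041 ± 1256 CPM over the controls and 4903 ± 621 CPM over TgGRK5-MI (log2 fold change -0.04, edgeR unadjusted p = 0.897). Of the desmosomal genes typical of skin and other epithelia, Dsg1a, Dsg3, Dsc1 and Dsc3 had at most 3 counts in any library and Pkp1 at most 9 counts. Pkp3 had between 1 and 26 counts per library and passed the filter, at 0.499 ± 0.208 CPM over the controls and 0.512 ± 0.41 CPM over TgGRK5-MI (SD, n = 5 each; edgeR unadjusted p = 0.853).

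In the adherens junction, Cdh4, which encodes R-cadherin, averaged 3.06 ± 1.30 CPM over the controls and 7.52 ± 3.79 CPM over TgGRK5-MI (SD, n = 5 each; log2 fold change 1.31, edgeR unadjusted p = 0.00679, adjusted p = 0.899). TgGRK5-MI replicate 2, at 2.84 CPM, lay within the range of the controls, and replicate 3 was the highest at 13.3 CPM. Catenins and vinculin, which join N-cadherin to actin, did not pass the threshold, with log2 fold changes of 0.02 for Ctnna1 (edgeR unadjusted p = 0.886), 0.17 for Ctnnb1 (edgeR unadjusted p = 0.435) and -0.11 for Vcl (edgeR unadjusted p = 0.588). Afdn, the actin-binding scaffold afadin, was the only 1 of the 64 genes whose groups did not overlap, where the share over all genes tested was 1%, from 76.4 to 96.2 CPM over the controls and from 67.2 to 71.1 CPM over TgGRK5-MI (log2 fold change -0.25, edgeR unadjusted p = 0.0505, exact permutation p = 0.00794, which is the lowest that 5 against 5 libraries can reach; named after its values were seen).

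Among the other connexins, Gja5, which encodes connexin 40 of the atria, the conduction system and arterial endothelium, averaged 9.20 ± 2.40 CPM over the controls and 9.89 ± 3.40 CPM over TgGRK5-MI (SD, n = 5 each; edgeR unadjusted p = 0.720). Of the 9 gap junction genes listed, 8 connexins and the pannexin Panx1, 4 passed the filter, and 0 of the 4 had an unadjusted p under 0.05. Gjb6 had 0 counts in all 10 libraries, which allows up to 3 counts or 0.121 to 0.393 CPM per library. Gja1 and Gjc1 were thus the most abundant of the connexins listed, as CPM and in these libraries.

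Of the 18 genes listed as disc-bound actin and signalling adaptors 16 had a log2 fold change below 0, where 49.8% of all genes did. At an unadjusted p under 0.05, 2 were lower, where 2.08% of all genes were. These were Flnc (filamin C, log2 fold change -0.87, edgeR unadjusted p = 0.0171) and Synm (synemin, log2 fold change -0.42, edgeR unadjusted p = 0.0240). Synemin is an intermediate filament protein that was placed in this group of the list. Flnc was at 359, 621, 527, 1274 and 469 CPM in NLC-MI replicates 1 to 5 and at 425, 272, 328, 315 and 434 CPM in TgGRK5-MI replicates 1 to 5. NLC-MI replicate 4 was far above the other controls, and replicate 1 lay within the range of TgGRK5-MI. Without NLC-MI replicate 4 the log2 fold change was -0.48 for Flnc (edgeR unadjusted p = 0.0485) and -0.33 for Synm (edgeR unadjusted p = 0.0705). In the 7 deepest libraries the unadjusted p was 0.0767 for Flnc and 0.0689 for Synm with edgeR. The 18 genes share their libraries, so their directions are not independent of each other.

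**Figure D4:**
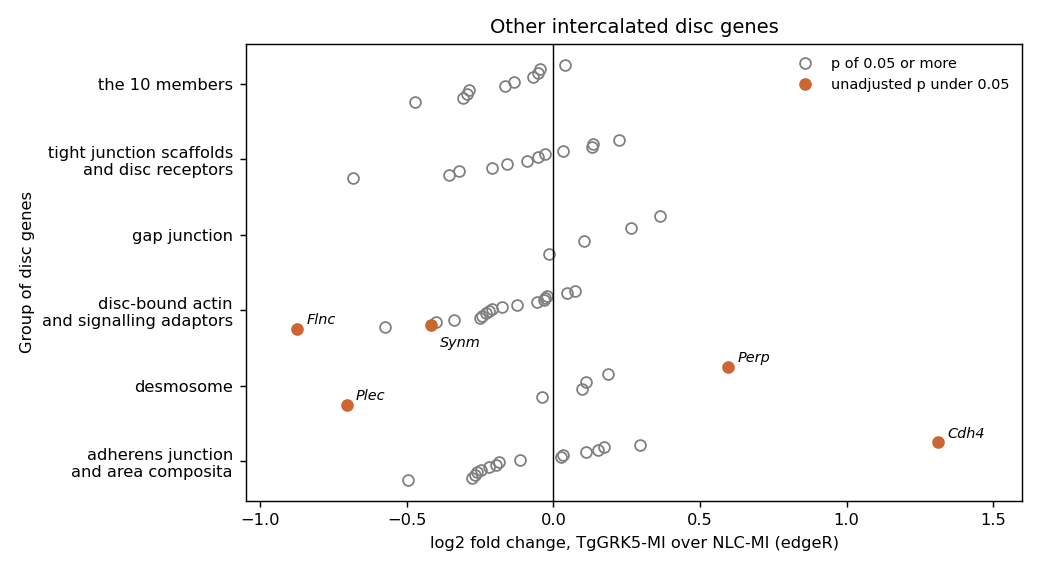
Log2 fold change (horizontal axis, TgGRK5-MI over NLC-MI, edgeR) of further disc genes of 5 groups and of the 10 members (vertical axis). Filled points are genes with an unadjusted p under 0.05, of which Perp and Cdh4 lie above 0 and Plec, Flnc and Synm below it.

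The length of a gene moved with these fold changes over all genes tested. The median log2 fold change was 0.10 over the 747 genes with at most 1000 bases of exon and -0.10 over the 792 genes with more than 12000 bases, and it was below 0 for 42.2% and 69.1% of them. It stayed above 0 in the shortest class and below 0 in the longest class under all 16 alternatives, the smallest values being 0.04 and -0.06. The members have from 5003 to 10257 bases of exon, and the medians over all genes of their classes were -0.02 (over 4000 to 6000 bases), -0.03 (over 6000 to 8000 bases) and -0.06 (over 8000 to 12000 bases). The fold changes of Dsp (9659 bases), Cdh2, Dsg2 and Dsc2 lay below the 25th percentile of genes of their length class, and those of the other 6 members lay above it. The part of length in the values of the members and of the further disc genes was not tested.

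**Figure D5:**
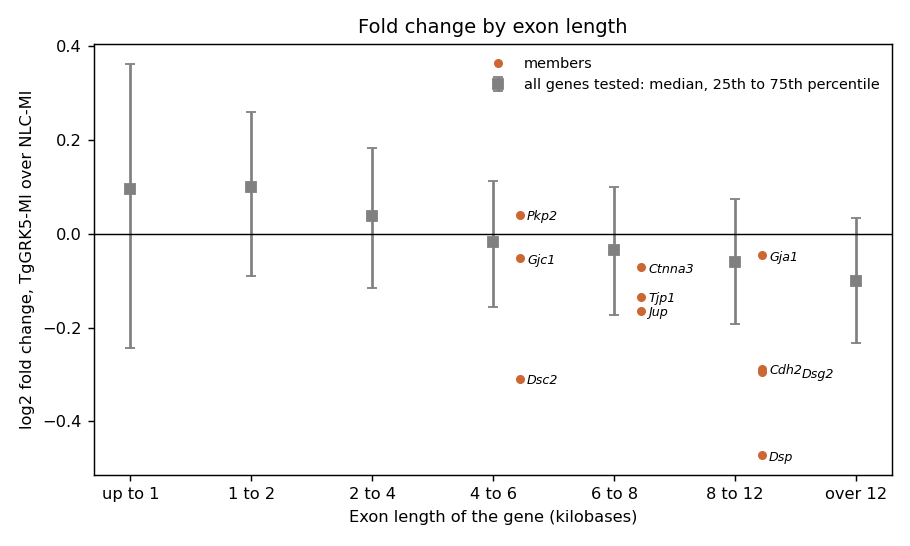
Median log2 fold change of all genes tested by exon length class (squares, with the 25th to 75th percentile) and the fold change of each member (points). The medians go from 0.10 in the shortest genes to -0.10 in the longest.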

How the data were processed

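RNA of cardiomyocytes from 10 mice was analysed, 5 NLC-MI and 5 TgGRK5-MI, grouped by the labels. The authors deposited whole-number counts per Ensembl gene without normalization. The submitters' processing notes name Bowtie2, RSEM 1.2.31, DESeq2 and mm10 without their roles, so these deposited values were taken as rounded expected counts, in which RSEM shares out reads that match several genes. The strand setting and annotation are not given in the sources used here. Nothing in the labels gives litters or batches.

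Symbols, positions and exon lengths came from GENCODE M21 (GRCm38), which held 51596 of 51789 identifiers. The exon length of a gene was the union of all its annotated exons. Dsp shares 499 exon bases with Gm10129 (26 counts in all libraries) and Dsg2 shares 330 with Gm16090 (0 counts), both on the opposite strand. No other near copy (95% identity over 200 bases, blastn 2.17.0) was found.

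Counts were fitted in edgeR 4.0.16 (R 4.3.3) with TMM, filterByExpr by group and the quasi-likelihood F test, with Benjamini-Hochberg adjustment over 15232 genes. Thresholds were an adjusted p under 0.10 and an unadjusted p under 0.05. The standard error was the log2 fold change over the root of F, and 95% intervals used it. Log2 CPM used a prior count of 2. For single values, exact permutation p-values (two-sided, 252 placements) are given, and pairs of genes by permutation within groups. Alternatives were RLE size factors, library size alone, no filter, DESeq2 1.42.0, the replicate number as a block and each library left out in turn; the 7 deepest libraries, and the summary by exon length, were chosen after seeing the data. On simulated counts with 200 genes changed by 4-fold the edgeR test recovered 97.5% of them, and 9.30% of its calls were false (DESeq2 98.0% and 19.3%). The simulation gave all genes the same dispersion, and changes as small as those fitted for the members were not simulated.

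The members and gene lists were chosen with earlier results of these data known. The text names all members, Grk5, Ctnnb1, Ctnna1, Vcl, Des and Gja5, the other disc genes with an unadjusted p under 0.05, of which 2 are not reported here, and the 5 genes most correlated with Gja1. Markers are named where their sums moved with a result.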

Additional observations from a re-analysis of the deposited data

Results flagged for a closer look

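Within the 5 TgGRK5-MI libraries, Tjp1 stood at 150.4 CPM in replicate 4, where the next highest was 93.2 CPM. Its gap took 0.786 of the range of the group, above the limit of 0.71 for 5 values. Values of the 10 members and the 3 ratios in each group gave 26 such checks, of which this was the only 1 past the limit, while chance passes about 5% of them. TgGRK5-MI replicate 4 had the fewest counts of its group (9114469) and was among the libraries that lay apart on the first principal component.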

How the results depend on the processing

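No member had an adjusted p under 0.10 in any of the 16 alternatives. With DESeq2, 1 member was lower at an unadjusted p under 0.05 (Dsp), and without NLC-MI replicate 1, 2 members were (Dsp and Dsc2), so leaving out 1 library gave from 0 to 2 members. Of the further disc genes, the lower ones at that threshold were 2 with the replicate number as a block and 2 in the 7 deepest libraries, and from 2 (without NLC-MI replicate 4) to 11 (without NLC-MI replicate 1) with 1 library left out, with 8 without NLC-MI replicate 5. Over all genes, those higher and lower at an adjusted p under 0.10 were 8 and 4 as reported, 42 and 27 with DESeq2, 5 higher with the block, 5 and 1 in the 7 deepest libraries, 13 higher with library size alone and 13 higher without a filter, and from 2 to 7 and from 1 to 3 with 1 library left out. At an unadjusted p under 0.05 they were 516 and 647 without a filter, 493 lower with DESeq2, and from 175 to 591 and from 264 to 537 with 1 library left out. DESeq2 and the fit without a filter tested more genes, and otherwise the cause was not tested.

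In the 7 deepest libraries the log2 fold change turned to -0.020 for Pkp2 and -0.010 for Ctnna1. With 1 library left out it ran from -0.037 to 0.13 for Pkp2, from -0.15 to 0.10 for Gja1, from -0.11 to 0.013 for Gjc1, from -0.26 to 0.086 for Ctnna3, from -0.32 to 0.076 for Tjp1, from -0.065 to 0.086 for Ctnna1, from -0.16 to 0.10 for Des and from -0.043 to 0.27 for Gja5. For Dsp, Dsg2, Dsc2, Jup and Cdh2 it kept its sign, from -0.63 to -0.07 over these fits. The difference of log2 ratios ran from -0.12 to 0.13 for Gjc1 over Gja1, from -0.082 to 0.037 for Dsc2 over Dsg2 and from -0.57 to -0.14 for Jup over Ctnnb1. With library size alone, r of Dsp with Pkp2 was 0.49 (permutation p = 0.140) and r of Dsp with Jup was 0.29 (permutation p = 0.414). Synm also had an edgeR unadjusted p of 0.0602 with the replicate block, 0.0526 without NLC-MI replicate 2 and 0.0530 without TgGRK5-MI replicate 1.

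Replicate numbers recur in both groups, but each number stands for another mouse. Over genes, the deviations of libraries with one number correlated at 0.072, 0.66, 0.38, -0.34 and 0.085, and only replicate 2 correlated best with its own number. The replicate block left every member without a call and gave Dsp a log2 fold change of -0.45 (edgeR adjusted p = 1.00).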
